A study of Mus musculus with 9 samples.

Results

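Interferon-stimulated genes are the genes that cells switch on when an interferon binds its receptor. The set described here is a list of 46 mouse gene symbols, taken by symbol from the deposited expression table of 18474 genes. The table held 44 of the 46, and all 44 carried enough counts to be tested, among 14752 tested genes. Mx1 and Mx2, a pair of antiviral GTPase genes on the list, were not analysed here. The RNA came from hippocampus of wild-type mice in 3 groups of 3 mice, with 1 library per mouse. Sham mice had the control procedure, KA mice had KA, and KA+NBP mice had KA and NBP, and all were taken 30 days after treatment. KA is taken to mean kainic acid, which excites neurons through glutamate receptors and induces seizures. NBP is taken to mean butylphthalide, named in the series title. Strain, sex, age, dose and route are not given in the sources used here, and no interferon, virus or altered allele is named in any group.

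Type I interferons signal through a receptor of the chains Ifnar1 and Ifnar2, which activates Janus kinases. These phosphorylate Stat2, which joins Irf9 in a complex that binds a DNA element called the interferon-stimulated response element (ISRE). Interferon gamma uses another receptor, Ifngr1 with Ifngr2, which leads to binding at a gamma-activated site (GAS). The genes switched on act at many steps of a viral life cycle: they sense foreign nucleic acid, degrade or trap viral RNA, tag proteins with Isg15 and amplify the response. In brain, microglia, astrocytes, neurons and vessel cells can all respond to interferon.

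To show what letters stand in front of these genes, RefSeq promoter windows on GRCm38.p6 were searched in the 250 bases before each start. Windows were found for 34 of the 44 genes, 41 windows in all. The ISRE-type letters searched were GAAA, any 2 bases and GAAA again, or on the other strand TTTC, any 2 bases and TTTC. They were present in 14 of the 41 windows (34.15%), against 978 of 32851 windows of all genes (2.977%) and 2.626% of the windows of tested genes. The GAS-type letters TTCNNNGAA, which read the same on both strands, were present in 8 of the 41 (19.51%), against 7.02% of all windows and 5.86% of those of tested genes. The 6 windows chosen are printed 5′ to 3′ on the strand of the gene, with matched letters of either type in capitals; overlapping matches join into 1 run. Isg15 (chr4:156200819-156201068, minus strand) held 3 overlapping ISRE-type matches, Ifit1 (chr19:34640639-34640888, plus strand) held 2, and Oas1a (chr5:120907526-120907775, minus strand) held 2 that overlap, and a GAS-type match. Igtp (chr11:58199306-58199555, plus strand), the gene whose level in KA+NBP replicate 2 passed all 3 KA libraries, held 1 match of each type. Rsad2 (chr12:26456453-26456702, minus strand) held 1 ISRE-type match. Cmpk2 (chr12:26468965-26469214, plus strand), its neighbour and the gene among the 44 that moved least, held none.
Isg15: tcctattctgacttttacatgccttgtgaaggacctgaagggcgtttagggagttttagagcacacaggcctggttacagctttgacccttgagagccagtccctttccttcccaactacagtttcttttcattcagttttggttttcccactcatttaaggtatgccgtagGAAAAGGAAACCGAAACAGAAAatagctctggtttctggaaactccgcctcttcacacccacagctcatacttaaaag
Ifit1: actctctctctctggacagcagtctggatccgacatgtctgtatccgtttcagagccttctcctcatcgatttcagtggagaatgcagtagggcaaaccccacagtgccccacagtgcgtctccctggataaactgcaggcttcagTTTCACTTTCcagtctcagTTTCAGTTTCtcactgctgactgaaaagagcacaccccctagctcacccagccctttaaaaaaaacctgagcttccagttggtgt
Oas1a: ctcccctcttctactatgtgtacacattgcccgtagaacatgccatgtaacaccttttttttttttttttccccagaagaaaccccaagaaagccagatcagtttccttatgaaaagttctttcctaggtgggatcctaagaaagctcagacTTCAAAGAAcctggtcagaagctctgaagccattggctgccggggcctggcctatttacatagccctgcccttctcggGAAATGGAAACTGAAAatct
Igtp: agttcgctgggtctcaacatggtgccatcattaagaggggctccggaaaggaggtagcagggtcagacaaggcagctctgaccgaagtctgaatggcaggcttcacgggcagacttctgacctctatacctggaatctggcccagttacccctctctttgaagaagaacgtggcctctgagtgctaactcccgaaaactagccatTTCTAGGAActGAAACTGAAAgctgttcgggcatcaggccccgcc
Rsad2: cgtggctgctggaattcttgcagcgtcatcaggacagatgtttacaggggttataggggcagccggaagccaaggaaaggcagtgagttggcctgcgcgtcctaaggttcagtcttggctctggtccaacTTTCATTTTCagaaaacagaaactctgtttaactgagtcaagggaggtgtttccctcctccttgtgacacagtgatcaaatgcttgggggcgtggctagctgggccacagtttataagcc
Cmpk2: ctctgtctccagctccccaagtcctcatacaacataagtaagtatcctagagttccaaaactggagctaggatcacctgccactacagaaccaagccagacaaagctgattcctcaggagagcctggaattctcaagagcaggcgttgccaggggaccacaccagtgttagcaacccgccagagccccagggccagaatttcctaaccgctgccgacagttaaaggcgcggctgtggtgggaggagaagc
A match describes the letters only and is not a measured binding site. GAS-type matches were also found for Gbp7, Isg20, Bst2, Irf1, Eif2ak2 and Ifit2, and further ISRE-type matches for Ifi207, Gbp2, Gbp3, Gbp7, Oas3, Bst2, Stat2, Irgm1 and Ifit3. Neither type was found for Irf7, Irf9, Sp100, Helz2, Oasl1, Oasl2, Ifih1, Samd9l, Ifitm3, Trim25, Dtx3l, Ifi35, Ifi44, Xaf1, Lgals3bp and Cmpk2. All of these but Cmpk2 rose in KA, and whether a match goes with a rise was not tested.

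Library totals ran from 15699251 to 16374637 estimated counts, so a gene without a count in a library may stand at up to 0.177 to 0.191 CPM (the rounded count scaled to a common library total; the bound is 3 counts and covers counting error only). A single library stood apart from its group. KA+NBP replicate 2 was the highest of its 3 libraries in 44 of the 44 genes. The same held for 43.2% of all tested genes, 82.7% of 2760 other genes that rose in KA and 10 of 10 microglia markers. The main counts of calls among the 44 and most of their fold changes against KA are given with and without this library. It also held 634 CPM over 7 choroid plexus markers, against 22.7 to 49.9 in the other 8 libraries, with Ttr alone at 553. Over 13 markers of infiltrating leukocytes it held 19.0 CPM, against 0.890 and 0.942 in the other KA+NBP libraries, 5.86 to 10.1 in KA and 2.00 to 3.20 in sham, and 1 of the 13 was at 0 in it. Markers of brain cells were present in all 9 libraries, with 0 of 8 neuronal and 0 of 8 hippocampal neuron markers at 0 in any. The sum of 10 microglia markers was 398 to 483 CPM in sham, 1612 to 1649 in KA and 398, 794 and 367 in KA+NBP, with 0 of 10 at 0. The sum of 8 astrocyte markers was 4325 to 4852 CPM in sham, 10082 to 12455 in KA and 4317, 8235 and 4559 in KA+NBP, and that of 8 endothelial markers 206 to 238, 292 to 310.2 and 213, 282 and 193. The sum of 8 neuronal markers was 7059 to 7589 CPM in sham, 5429 to 6214 in KA and 7489.7, 5989 and 7454 in KA+NBP, and that of 8 oligodendrocyte markers 3899 to 5835, 4979.6 to 6287 and 5083, 6734 and 3349.6. The microglia, astrocyte, endothelial and leukocyte sums were higher in every KA library than in every sham library, the neuronal sum was lower and the oligodendrocyte sums overlapped. By the test described below, 9 of 10 microglia, 7 of 8 astrocyte, 5 of 8 endothelial and 2 of 8 oligodendrocyte markers rose (19.0% of all tested genes). Of the neuronal markers 4 of 8 fell (14.6%), and mean CPM of Slc17a7 and Gad1 was not lower in KA. Of 13 leukocyte markers 3 were tested and 0 passed, and mean CPM of S100a8 and S100a9 was lower in KA. The part of these sums in the results below was not tested. In whole tissue, more cells of a type and more RNA per cell cannot be told apart.

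**Figure D1:**
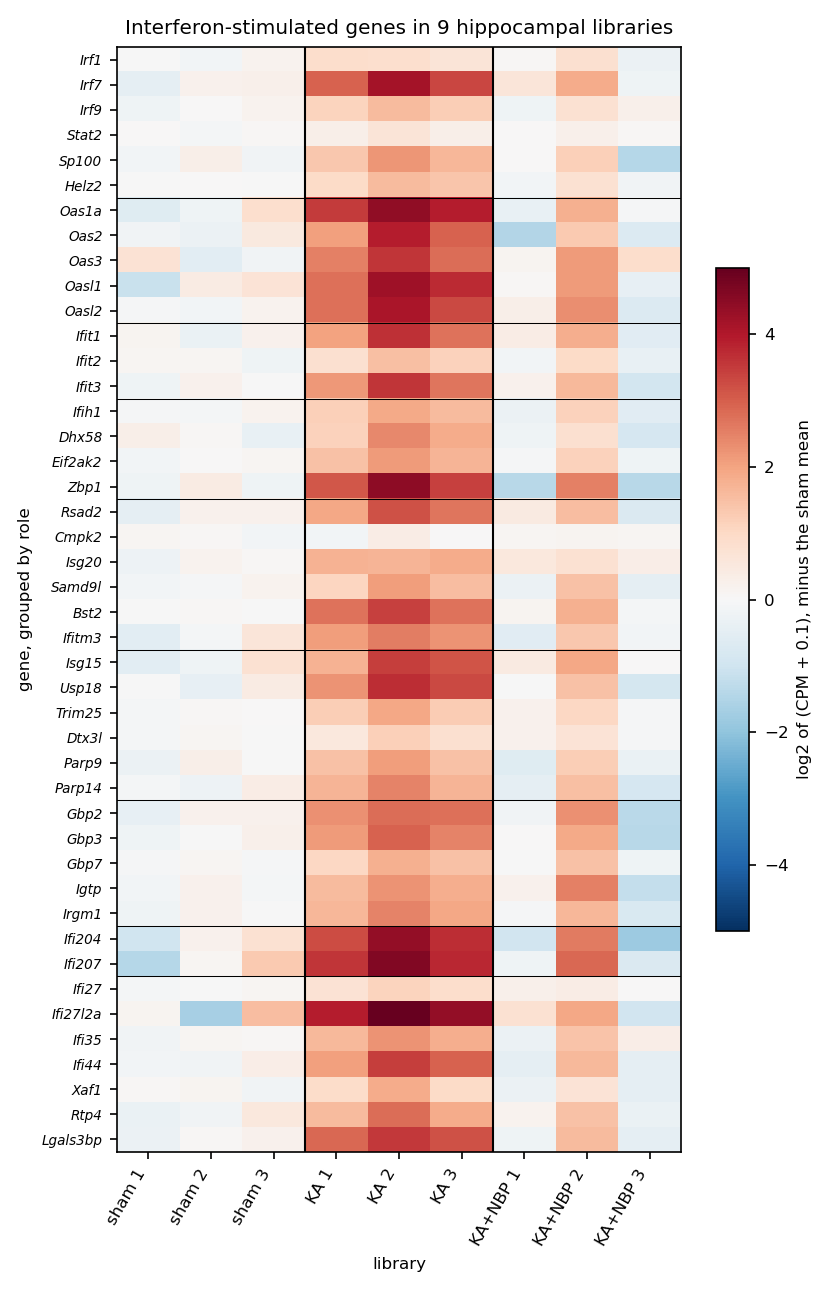
Level of each of 44 interferon-stimulated genes (rows, grouped by role) in each of 9 libraries (columns), as log2 of (CPM + 0.1) minus the mean of the 3 sham libraries on the same scale; red is above and blue below the sham mean. The 3 KA columns are red in nearly every row, darkest in KA replicate 2. Among the KA+NBP columns that of replicate 2 is red, replicate 1 lies near the sham level and replicate 3 lies below it in most rows.

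The comparison of KA with sham asked what had changed by day 30. Of the 44 interferon-stimulated genes 42 rose in KA (edgeR's quasi-likelihood test, Benjamini-Hochberg adjusted p under 0.05 over all tested genes), where 19.0% of all tested genes did, and none fell, where 14.6% did. In 43 of the 44 every KA library lay above every sham library, which held for 29.3% of all tested genes. The median log2 fold change of the 44 was 2.12, with a range of 0.10 for Cmpk2 to 4.40 for Ifi27l2a, against a median of 0.01 over all tested genes. At least 2-fold rises that passed the test were found in 38 of the 44. Of the other 6, Cmpk2 and Igtp did not pass, and Irf1, Stat2, Dtx3l and Ifi27 passed with less than 2-fold rises. The count of 42 was 43 (24.8% of all tested genes) without KA+NBP replicate 2, but 24 without sham replicate 1, 26 without sham replicate 3, 28 without sham replicate 2 and 27 without KA replicate 2. The share of all tested genes is not given for these lower counts. Of the 42 calls, 23 held with each of the 9 libraries left out in turn. With only the 6 sham and KA libraries in the fit, the result was the same for 43 of the 44 and Igtp was gained.

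The comparison of KA+NBP with KA asked whether NBP altered the response to KA. Of the 44 genes 26 were lower in KA+NBP than in KA at the same threshold, where 12.7% of all tested genes were, and none was higher, where 10% were. In 35 of the 44 every KA+NBP library lay below every KA library, which held for 20.4% of all tested genes. The median log2 fold change was -1.58, against -0.01 over all tested genes, and 43 of the 44 values were below 0. Without KA+NBP replicate 2 the count was 43 of 44 (23.6% of all tested genes), all but Cmpk2, and the median -2.57. That median was the same with Zbp1, which had no count in either remaining library, set at its bound of 3 counts. Leaving out another library lowered the count: it was 7 without KA+NBP replicate 1, 9 without KA+NBP replicate 3, 9 without KA replicate 2, 13 without KA replicate 3 and 17 without sham replicate 2. With only the 6 libraries compared in the fit it was 6. The share of all tested genes is not given for these lower counts, so they cannot be set against other genes. The falls of Irf7, Oas1a, Isg20, Bst2, Ifi27 and Lgals3bp held with each of the 9 libraries left out in turn, and the other 20 were lost at least once. The fall of Bst2 was lost with only the 6 libraries compared (adjusted p = 0.0538). All adjusted p-values below come from edgeR, and each pair of values for a gene gives KA against sham first. The counts of each role group below stand beside the same shares of all tested genes. These were 19.0% higher in KA and 12.7% lower in KA+NBP than in KA.

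**Figure D2:**
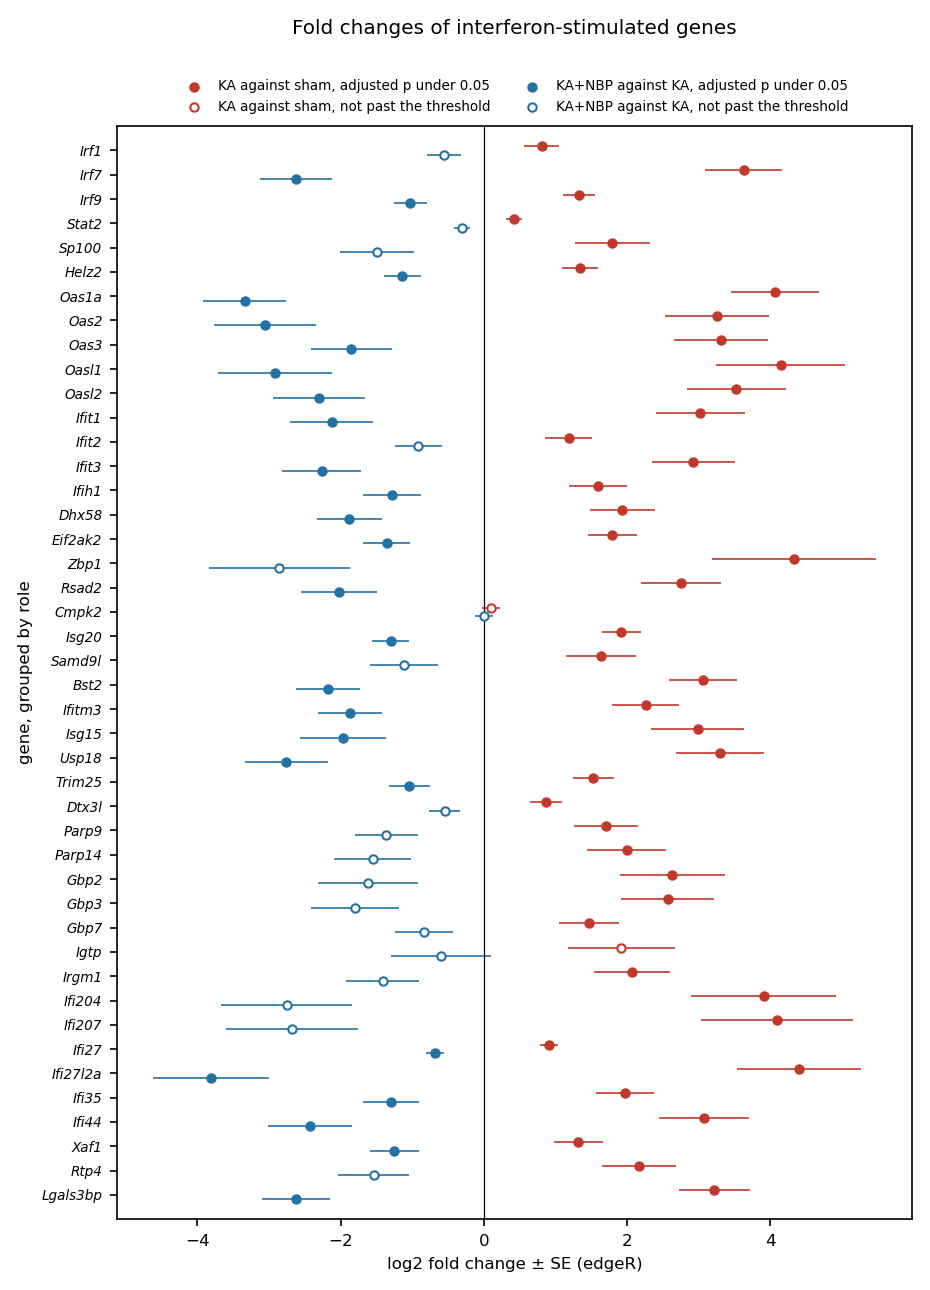
Log2 fold change with its SE for each of 44 interferon-stimulated genes, KA against sham in red and KA+NBP against KA in blue, filled where the adjusted p was under 0.05 and open where it was not (edgeR, 3 libraries per group). The red points are filled for 42 of 44 genes and the blue points for 26, with none of the 5 GTPases and neither of the PYHIN genes filled in blue.

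Among the 6 genes for transcription factors and nuclear cofactors, 6 rose in KA and 3 were lower in KA+NBP than in KA. Irf7, a transcription factor that drives the genes of type I interferons and is itself induced by them, changed most (chr7:140843096-140846412 on GRCm39). Irf7 stood at 0.998, 1.68 and 1.69 CPM in the sham libraries, 11.6, 27.3 and 15.4 in those of KA and 2.22, 5.38 and 1.19 in those of KA+NBP. Irf7 had log2 fold changes of 3.63 (SE 0.54, adjusted p = 0.00239) for KA against sham and -2.62 (SE 0.50, adjusted p = 0.00930) for KA+NBP against KA, the latter -3.40 without KA+NBP replicate 2. The 3 KA libraries were far above the 6 others, and KA+NBP replicate 2 lay between sham and KA. Irf9, the DNA-binding part of the complex with Stat2, stood at 8.92, 10.3 and 11.7 CPM in the sham libraries, 22.6, 30.9 and 24.4 in those of KA and 8.83, 17.2 and 12.2 in those of KA+NBP. Irf9 had log2 fold changes of 1.33 (SE 0.23, adjusted p = 0.00395) for KA against sham and -1.02 (SE 0.23, adjusted p = 0.0151) for KA+NBP against KA, the latter -1.30 without KA+NBP replicate 2. KA did not overlap with either other group, and KA+NBP replicates 1 and 3 were close to sham. Helz2, a nuclear helicase and transcriptional coactivator, stood at 8.05, 8.21 and 7.97 CPM in the sham libraries, 15.8, 24.5 and 21.1 in those of KA and 7.25, 13.6 and 7.09 in those of KA+NBP. Helz2 had log2 fold changes of 1.34 (SE 0.26, adjusted p = 0.00546) for KA against sham and -1.14 (SE 0.25, adjusted p = 0.0155) for KA+NBP against KA, the latter -1.51 without KA+NBP replicate 2. Again all KA libraries were above all others. Sp100, a protein of nuclear bodies, stood at 2.87, 3.92 and 2.82 CPM in the sham libraries, 8.32, 14.8 and 10.2 in those of KA and 3.24, 7.46 and 1.13 in those of KA+NBP. Sp100 had log2 fold changes of 1.79 (SE 0.52, adjusted p = 0.0281) for KA against sham and -1.49 (SE 0.51, adjusted p = 0.0649) for KA+NBP against KA, the latter -2.34 without KA+NBP replicate 2. Replicate 2 of KA+NBP was close below the lowest KA library, and replicate 3 below all sham libraries. Stat2, a factor of type I signalling, was the highest of the 6 per transcript length in sham and stood at 32.8, 30.5 and 33.7 CPM in the sham libraries, 39.3, 51.0 and 39.8 in those of KA and 33.1, 38.1 and 34.0 in those of KA+NBP. Stat2 had log2 fold changes of 0.42 (SE 0.11, adjusted p = 0.0185) for KA against sham and -0.31 (SE 0.11, adjusted p = 0.0735) for KA+NBP against KA, the latter -0.37 without KA+NBP replicate 2. The shift was small, and the sham and KA libraries did not overlap. Irf1, a factor induced by interferon gamma and other cytokines, stood at 7.23, 6.53 and 8.16 CPM in the sham libraries, 13.6, 13.3 and 11.5 in those of KA and 7.50, 12.6 and 5.96 in those of KA+NBP. Irf1 had log2 fold changes of 0.81 (SE 0.25, adjusted p = 0.0325) for KA against sham and -0.56 (SE 0.24, adjusted p = 0.126) for KA+NBP against KA, the latter -0.92 without KA+NBP replicate 2. KA+NBP replicate 2 lay within the KA range, so those groups overlapped. The rise of Irf1 was lost without any of the 6 sham and KA libraries (adjusted p up to 0.110), that of Sp100 without any sham library or KA replicate 2 or 3 (up to 0.0949) and that of Stat2 without sham replicate 1 or 2 (up to 0.0757). The fall of Helz2 was lost without KA replicate 2 or KA+NBP replicate 1 or 3 (adjusted p up to 0.0596) and that of Irf9 without KA+NBP replicate 3 (0.0505). The spans of Stat2 and Apof overlap in the table, as do those of Sp100 and Sp140, on the same strand in both cases, so reads in the shared parts may be divided between them. Of the 9 counts of each gene, 1 of Stat2 and 0 of Sp100 carried a fraction.

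The oligoadenylate synthetases make a short adenylate chain in the presence of double-stranded RNA, which activates an RNA-degrading enzyme. All 5 rose in KA, with a median log2 fold change of 3.53, and all 5 were lower in KA+NBP than in KA. Oas1a (chr5:121034319-121045605 on GRCm39) stood at 0.312, 0.435 and 1.00 CPM in the sham libraries, 6.91, 13.4 and 9.50 in those of KA and 0.381, 2.02 and 0.502 in those of KA+NBP. Oas1a had log2 fold changes of 4.07 (SE 0.61, adjusted p = 0.00247) for KA against sham and -3.34 (SE 0.58, adjusted p = 0.00644) for KA+NBP against KA, the latter -4.46 without KA+NBP replicate 2. It was near its count limit in sham and in KA+NBP replicates 1 and 3, and all KA libraries were above all others. Oasl2, the highest of the 5 per transcript length in KA, stood at 2.81, 2.61 and 3.33 CPM in the sham libraries, 20.4, 51.3 and 29.3 in those of KA and 3.56, 15.1 and 1.76 in those of KA+NBP. Oasl2 had log2 fold changes of 3.53 (SE 0.70, adjusted p = 0.00613) for KA against sham and -2.30 (SE 0.64, adjusted p = 0.0323) for KA+NBP against KA, the latter -3.66 without KA+NBP replicate 2. KA replicate 2 was the highest and KA+NBP replicate 2 close below the lowest KA library. Oas3 stood at 0.437, 0.124 and 0.188 CPM in the sham libraries, 1.77, 3.74 and 2.16 in those of KA and 0.254, 1.35 and 0.502 in those of KA+NBP. Oas3 had log2 fold changes of 3.32 (SE 0.65, adjusted p = 0.00613) for KA against sham and -1.85 (SE 0.57, adjusted p = 0.0453) for KA+NBP against KA, the latter -2.73 without KA+NBP replicate 2. It was the lowest of the 44 per transcript length in all 3 groups, and 8 of its 9 counts carried a fraction, as reads shared with related genes are divided. Oasl1, which in mouse lacks synthetase activity and restrains the translation of Irf7, stood at 0, 0.187 and 0.251 CPM in the sham libraries, 1.36, 3.99 and 2.77 in those of KA and 0.127, 0.856 and 0.0628 in those of KA+NBP. Oasl1 had log2 fold changes of 4.14 (SE 0.91, adjusted p = 0.00919) for KA against sham and -2.91 (SE 0.79, adjusted p = 0.0305) for KA+NBP against KA, the latter -4.72 without KA+NBP replicate 2. All 3 sham libraries and KA+NBP replicates 1 and 3 held only a few counts. Oas2 stood at 0.748, 0.684 and 1.26 CPM in the sham libraries, 3.90, 14.7 and 7.34 in those of KA and 0.254, 2.32 and 0.502 in those of KA+NBP. Oas2 had log2 fold changes of 3.26 (SE 0.73, adjusted p = 0.00993) for KA against sham and -3.06 (SE 0.71, adjusted p = 0.0181) for KA+NBP against KA, the latter -4.48 without KA+NBP replicate 2. Relative to its mean it had the widest spread within KA of the 44, and KA was still above all other libraries. The rises of these 5 held with each library left out. The fall of Oas3 was lost without any library other than KA+NBP replicate 2 (adjusted p up to 0.150), and those of Oasl2 (up to 0.109), Oasl1 (up to 0.105) and Oas2 (up to 0.0600) without KA replicate 2, KA+NBP replicate 1 or KA+NBP replicate 3 among others. Oas2 and Oas3 lie 3213 bases apart and Oasl1 and Oasl2 10929 bases apart on chromosome 5.

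The 3 IFIT genes encode proteins that bind viral RNA and stop its translation. All 3 rose in KA, and 2 were lower in KA+NBP than in KA. Ifit3 (chr19:34560519-34566382 on GRCm39) stood at 6.49, 8.70 and 7.41 CPM in the sham libraries, 33.9, 90.1 and 48.1 in those of KA and 8.58, 23.2 and 3.95 in those of KA+NBP. Ifit3 had log2 fold changes of 2.93 (SE 0.58, adjusted p = 0.00613) for KA against sham and -2.26 (SE 0.55, adjusted p = 0.0209) for KA+NBP against KA, the latter -3.19 without KA+NBP replicate 2. KA replicate 2 was far above replicates 1 and 3, and KA did not overlap with the other groups. All 9 counts of Ifit3 carried a fraction, so its reads are shared with a related gene. Ifit1 stood at 1.50, 1.06 and 1.57 CPM in the sham libraries, 5.84, 18.2 and 9.56 in those of KA and 1.78, 5.01 and 0.879 in those of KA+NBP. Ifit1 had log2 fold changes of 3.02 (SE 0.62, adjusted p = 0.00720) for KA against sham and -2.12 (SE 0.58, adjusted p = 0.0311) for KA+NBP against KA, the latter -3.07 without KA+NBP replicate 2. Replicate 2 of KA+NBP was just below the lowest KA library. Ifit2 stood at 9.35, 9.39 and 7.59 CPM in the sham libraries, 15.5, 25.0 and 19.4 in those of KA and 7.88, 17.2 and 6.72 in those of KA+NBP. Ifit2 had log2 fold changes of 1.18 (SE 0.33, adjusted p = 0.0237) for KA against sham and -0.91 (SE 0.33, adjusted p = 0.0729) for KA+NBP against KA, the latter -1.45 without KA+NBP replicate 2. It moved less than the other 2, and KA+NBP replicate 2 lay within the KA range. The rise of Ifit2 was lost without any sham library or KA replicate 2 or 3 (adjusted p up to 0.0864). The fall of Ifit1 was lost without any library but KA replicate 1 and KA+NBP replicate 2 (up to 0.108), and that of Ifit3 without KA replicate 2 or KA+NBP replicate 1 (up to 0.0809). The 3 genes lie together on chromosome 19, Ifit2 and Ifit3 6584 bases apart, and the span of Ifit1 holds the opposite-strand gene Ifit1bl1 over 9121 shared bases.

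Of 4 genes for nucleic acid sensors and the kinase PKR, 4 rose in KA and 3 were lower in KA+NBP than in KA. Eif2ak2, which encodes PKR, a kinase that halts translation when it binds double-stranded RNA, stood at 9.60, 10.8 and 11.2 CPM in the sham libraries, 29.3, 46.3 and 33.9 in those of KA and 10.1, 23.5 and 9.04 in those of KA+NBP. Eif2ak2 had log2 fold changes of 1.80 (SE 0.34, adjusted p = 0.00514) for KA against sham and -1.36 (SE 0.33, adjusted p = 0.0205) for KA+NBP against KA, the latter -1.93 without KA+NBP replicate 2. KA was above all other libraries, and KA+NBP replicates 1 and 3 were at the sham level. Dhx58, a helicase that tunes RNA sensing, stood at 1.75, 1.49 and 1.07 CPM in the sham libraries, 3.25, 7.85 and 5.43 in those of KA and 1.21, 2.51 and 0.753 in those of KA+NBP. Dhx58 had log2 fold changes of 1.93 (SE 0.46, adjusted p = 0.0125) for KA against sham and -1.88 (SE 0.45, adjusted p = 0.0204) for KA+NBP against KA, the latter -2.48 without KA+NBP replicate 2. KA did not overlap with the other groups, although KA replicate 1 was low. Ifih1, the sensor of long double-stranded RNA also called MDA5, stood at 3.62, 3.54 and 4.33 CPM in the sham libraries, 8.91, 14.4 and 11.5 in those of KA and 3.11, 8.62 and 2.57 in those of KA+NBP. Ifih1 had log2 fold changes of 1.60 (SE 0.41, adjusted p = 0.0175) for KA against sham and -1.28 (SE 0.40, adjusted p = 0.0490) for KA+NBP against KA, the latter -2.02 without KA+NBP replicate 2. KA+NBP replicate 2 was close below KA replicate 1. Zbp1, a sensor of nucleic acid in the Z form, stood at 0.125, 0.249 and 0.126 CPM in the sham libraries, 2.12, 5.71 and 2.65 in those of KA and 0, 1.41 and 0 in those of KA+NBP. Its log2 fold change for KA against sham was 4.33 (SE 1.15, adjusted p = 0.0194) and for KA+NBP against KA -2.86 (SE 0.98, adjusted p = 0.0641). Zbp1 had no count in KA+NBP replicates 1 and 3 and 8 counts in all 3 sham libraries. The rises of Ifih1 (adjusted p up to 0.0641) and Zbp1 (up to 0.0764) were lost without any sham library or KA replicate 2, and that of Dhx58 without sham replicate 3 (0.0548). The fall of Ifih1 was lost without any library other than KA+NBP replicate 2 (up to 0.151) and with upper quartile scaling (0.0524), and those of Dhx58 (up to 0.0764) and Eif2ak2 (up to 0.0762) without KA replicate 2 or 3 or KA+NBP replicate 1 or 3. Eif2ak2 shares 689 bases with Gm26637 on the other strand.

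Of the 8 antiviral effectors listed 6 were tested, as Mx1 and Mx2 were not analysed here, and 5 of the 6 rose in KA and 4 were lower in KA+NBP than in KA. Isg20, an RNA exonuclease, stood at 0.437, 0.622 and 0.565 CPM in the sham libraries, 2.01, 1.96 and 2.22 in those of KA and 0.826, 0.978 and 0.691 in those of KA+NBP. Isg20 had log2 fold changes of 1.92 (SE 0.27, adjusted p = 0.00206) for KA against sham and -1.30 (SE 0.26, adjusted p = 0.0106) for KA+NBP against KA, the latter -1.43 without KA+NBP replicate 2. It had the narrowest spread within KA, and KA replicate 2 was its lowest KA library, unlike in the other genes. Bst2, called tetherin, which holds budding virus at the cell surface, stood at 2.00, 2.11 and 2.01 CPM in the sham libraries, 13.9, 23.0 and 14.1 in those of KA and 2.22, 7.15 and 1.88 in those of KA+NBP. Bst2 had log2 fold changes of 3.05 (SE 0.48, adjusted p = 0.00275) for KA against sham and -2.17 (SE 0.45, adjusted p = 0.0118) for KA+NBP against KA, the latter -3.04 without KA+NBP replicate 2. The 3 sham libraries were nearly equal and all KA libraries above all others. Ifitm3, a membrane protein that blocks virus entry, stood at 5.68, 7.71 and 12.5 CPM in the sham libraries, 35.0, 49.1 and 39.6 in those of KA and 5.53, 20.8 and 7.41 in those of KA+NBP. Ifitm3 had log2 fold changes of 2.26 (SE 0.46, adjusted p = 0.00700) for KA against sham and -1.87 (SE 0.45, adjusted p = 0.0201) for KA+NBP against KA, the latter -2.67 without KA+NBP replicate 2. KA did not overlap with the other groups. Rsad2, called viperin, an enzyme that makes a chain-terminating nucleotide, stood at 0.624, 1.06 and 1.07 CPM in the sham libraries, 3.72, 8.83 and 6.17 in those of KA and 1.27, 2.81 and 0.502 in those of KA+NBP. Rsad2 had log2 fold changes of 2.76 (SE 0.56, adjusted p = 0.00680) for KA against sham and -2.02 (SE 0.53, adjusted p = 0.0266) for KA+NBP against KA, the latter -2.80 without KA+NBP replicate 2. Replicate 2 of KA+NBP was between sham and KA. Samd9l, an antiviral protein that restrains translation, stood at 3.99, 4.17 and 4.96 CPM in the sham libraries, 9.33, 18.7 and 12.9 in those of KA and 3.50, 12.2 and 3.14 in those of KA+NBP. Samd9l had log2 fold changes of 1.64 (SE 0.49, adjusted p = 0.0304) for KA against sham and -1.12 (SE 0.48, adjusted p = 0.119) for KA+NBP against KA, the latter -2.04 without KA+NBP replicate 2. KA+NBP replicate 2 lay within the KA range. Cmpk2, a mitochondrial nucleotide kinase, stood at 21.3, 20.6 and 18.2 CPM in the sham libraries, 18.3, 26.1 and 20.0 in those of KA and 21.4, 21.8 and 21.5 in those of KA+NBP. Cmpk2 had log2 fold changes of 0.10 (SE 0.13, adjusted p = 0.581) and 0.0031 (SE 0.13, adjusted p = 0.989). All 3 groups of Cmpk2 lay within a narrow range, and the sham and KA libraries overlapped. Rsad2 and Cmpk2 lie 12669 bases apart on opposite strands of chromosome 12 (chr12:26492742-26506451 and chr12:26519121-26529836 on GRCm39). The rise of Samd9l was lost without any sham library or KA replicate 2 or 3 (adjusted p up to 0.0986), and the falls of Rsad2 (up to 0.0923) and Ifitm3 (up to 0.0665) without KA replicate 2 or 3 or KA+NBP replicate 1 or 3.

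**Figure D3:**
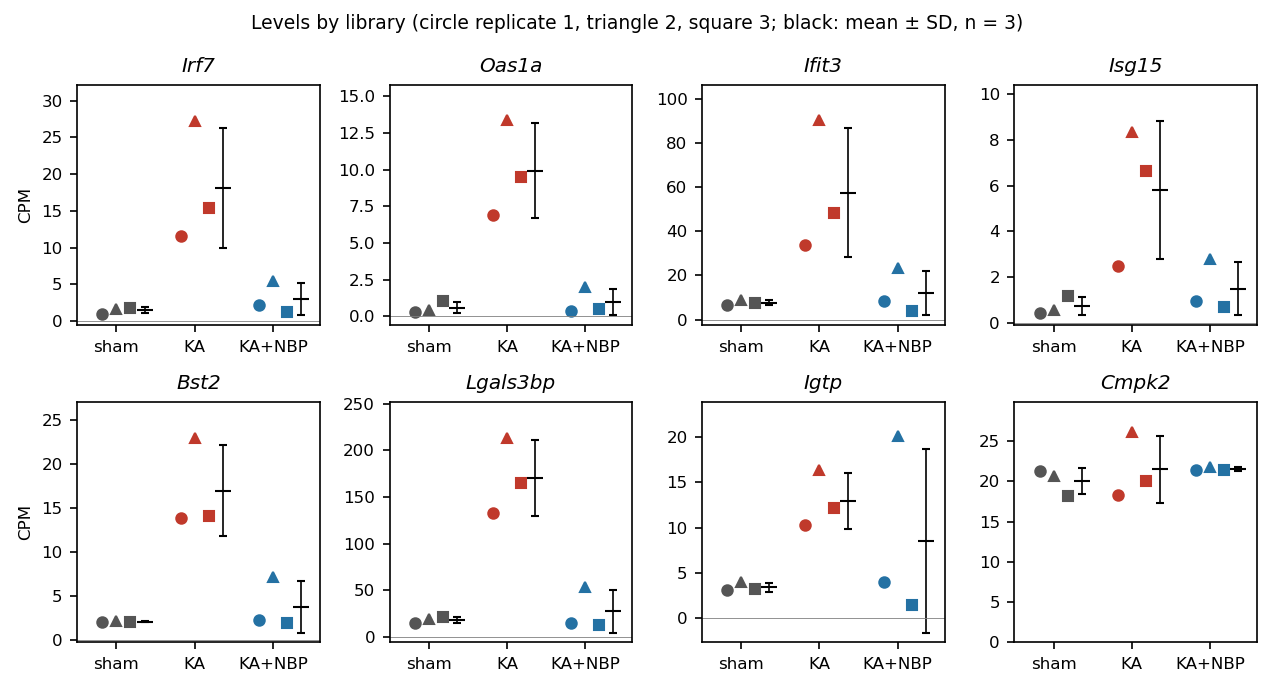
CPM of 8 interferon-stimulated genes in each library, with circles for replicate 1, triangles for replicate 2 and squares for replicate 3, and in black the mean ± SD of each group (n = 3). Irf7, Oas1a, Ifit3, Isg15, Bst2 and Lgals3bp are highest in KA replicate 2, Igtp is highest in KA+NBP replicate 2 at 20.2 CPM, and Cmpk2 is near 20 CPM in all 3 groups.

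The 6 genes of the next group act in Isg15 conjugation, ubiquitination and ADP-ribosylation, of which 6 rose in KA and 3 were lower in KA+NBP than in KA. Usp18, the protease that takes Isg15 off proteins and also dampens the type I receptor, stood at 0.748, 0.560 and 1.07 CPM in the sham libraries, 4.01, 11.2 and 8.39 in those of KA and 0.763, 2.32 and 0.377 in those of KA+NBP. Usp18 had log2 fold changes of 3.30 (SE 0.61, adjusted p = 0.00497) for KA against sham and -2.75 (SE 0.59, adjusted p = 0.0133) for KA+NBP against KA, the latter -3.77 without KA+NBP replicate 2. KA was above all other libraries. Isg15, the ubiquitin-like modifier itself (chr4:156283881-156285275 on GRCm39), stood at 0.437, 0.560 and 1.19 CPM in the sham libraries, 2.48, 8.34 and 6.66 in those of KA and 0.953, 2.81 and 0.691 in those of KA+NBP. Isg15 had log2 fold changes of 2.98 (SE 0.65, adjusted p = 0.00901) for KA against sham and -1.96 (SE 0.60, adjusted p = 0.0445) for KA+NBP against KA, the latter -2.81 without KA+NBP replicate 2. KA replicate 1 was the lowest of the KA libraries and below KA+NBP replicate 2, so those groups overlapped. Trim25, a ubiquitin ligase that activates RNA sensing, stood at 6.86, 7.58 and 7.47 CPM in the sham libraries, 17.4, 28.1 and 17.9 in those of KA and 8.58, 15.2 and 7.03 in those of KA+NBP. Trim25 had log2 fold changes of 1.53 (SE 0.29, adjusted p = 0.00525) for KA against sham and -1.04 (SE 0.28, adjusted p = 0.0302) for KA+NBP against KA, the latter -1.43 without KA+NBP replicate 2. Replicate 2 of KA+NBP was just below the lowest KA library. Dtx3l, a ubiquitin ligase, stood at 6.30, 7.21 and 6.59 CPM in the sham libraries, 9.74, 15.3 and 11.8 in those of KA and 7.75, 10.9 and 6.47 in those of KA+NBP. Dtx3l had log2 fold changes of 0.87 (SE 0.22, adjusted p = 0.0168) for KA against sham and -0.55 (SE 0.22, adjusted p = 0.101) for KA+NBP against KA, the latter -0.79 without KA+NBP replicate 2. KA+NBP replicate 2 lay within the KA range. Parp9, the binding partner of Dtx3l, stood at 3.49, 5.28 and 4.21 CPM in the sham libraries, 11.98, 18.5 and 11.8 in those of KA and 2.80, 10.3 and 3.39 in those of KA+NBP. Parp9 had log2 fold changes of 1.70 (SE 0.45, adjusted p = 0.0192) for KA against sham and -1.36 (SE 0.44, adjusted p = 0.0535) for KA+NBP against KA, the latter -2.19 without KA+NBP replicate 2. Dtx3l and Parp9 share 558 bases on opposite strands, and whether the counting used the strand is not given in the sources used here. Parp14, an ADP-ribosyltransferase, stood at 5.05, 4.54 and 7.16 CPM in the sham libraries, 17.9, 30.7 and 18.2 in those of KA and 4.00, 15.7 and 3.01 in those of KA+NBP. Parp14 had log2 fold changes of 2.00 (SE 0.55, adjusted p = 0.0227) for KA against sham and -1.55 (SE 0.54, adjusted p = 0.0654) for KA+NBP against KA, the latter -2.66 without KA+NBP replicate 2. For Parp9 and Parp14 the KA+NBP libraries were all below the KA libraries and replicates 1 and 3 below all sham libraries. The rises of Dtx3l (adjusted p up to 0.0636), Parp9 (up to 0.0743) and Parp14 (up to 0.0803) were lost without sham replicate 1 or 3 or KA replicate 2, and that of Parp14 without sham replicate 2 as well. The falls of Isg15 (up to 0.140) and Trim25 (up to 0.106) were lost without any library but KA replicate 1 and KA+NBP replicate 2, and that of Usp18 without KA+NBP replicate 1 (0.0546).

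The 5 interferon-inducible GTPases act on membranes around intracellular microbes and are known for their induction by interferon gamma. Of these 4 rose in KA and none was lower in KA+NBP than in KA by the test. Gbp3 stood at 3.74, 4.29 and 5.34 CPM in the sham libraries, 19.5, 34.5 and 25.3 in those of KA and 4.51, 16.5 and 1.63 in those of KA+NBP. Gbp3 had log2 fold changes of 2.57 (SE 0.64, adjusted p = 0.0158) for KA against sham and -1.80 (SE 0.61, adjusted p = 0.0620) for KA+NBP against KA, the latter -3.10 without KA+NBP replicate 2. KA+NBP replicate 3 was below all sham libraries and replicate 2 near the lowest KA library. Irgm1 stood at 6.74, 9.01 and 7.72 CPM in the sham libraries, 24.6, 44.3 and 29.7 in those of KA and 7.50, 24.9 and 4.52 in those of KA+NBP. Irgm1 had log2 fold changes of 2.07 (SE 0.53, adjusted p = 0.0175) for KA against sham and -1.41 (SE 0.51, adjusted p = 0.0756) for KA+NBP against KA, the latter -2.45 without KA+NBP replicate 2. Replicate 2 of KA+NBP lay within the KA range. Gbp2 stood at 2.49, 3.98 and 3.89 CPM in the sham libraries, 16.7, 24.2 and 23.6 in those of KA and 2.99, 16.7 and 1.26 in those of KA+NBP. Gbp2 had log2 fold changes of 2.63 (SE 0.74, adjusted p = 0.0241) for KA against sham and -1.62 (SE 0.69, adjusted p = 0.121) for KA+NBP against KA, the latter -3.34 without KA+NBP replicate 2. KA+NBP replicate 2 was just below the lowest KA library, at nearly the same level. Gbp7 stood at 5.18, 5.78 and 5.08 CPM in the sham libraries, 11.0, 18.6 and 14.9 in those of KA and 5.21, 15.1 and 4.58 in those of KA+NBP. Gbp7 had log2 fold changes of 1.47 (SE 0.42, adjusted p = 0.0253) for KA against sham and -0.84 (SE 0.41, adjusted p = 0.164) for KA+NBP against KA, the latter -1.60 without KA+NBP replicate 2. Replicate 2 of KA+NBP lay above the KA mean. Igtp (chr11:58090382-58098418 on GRCm39) stood at 3.06, 3.98 and 3.20 CPM in the sham libraries, 10.3, 16.3 and 12.2 in those of KA and 4.00, 20.2 and 1.44 in those of KA+NBP. Igtp had log2 fold changes of 1.92 (SE 0.75, adjusted p = 0.0747) and -0.60 (SE 0.70, adjusted p = 0.564). Every KA library was above every sham library, and KA+NBP replicate 2 was above all 3 KA libraries, while KA+NBP replicate 3 was the lowest of all 9. Without KA+NBP replicate 2 the values were 1.92 (adjusted p = 5.56e-04) and -2.25 (adjusted p = 6.99e-04), and DESeq2 passed its rise (adjusted p = 0.0186), as did the fit of only the 6 libraries compared (1.28e-04) and that without KA+NBP replicate 3 (0.0204). The rises of Gbp2 (up to 0.0900), Gbp3 (up to 0.0644) and Gbp7 (up to 0.0828) were lost without any sham library, those of Gbp2 and Gbp7 also without KA replicate 2 or 3, and that of Irgm1 (up to 0.0678) without sham replicate 1 or 3 or KA replicate 2. Gbp2, Gbp3 and Gbp7 lie in 1 cluster on chromosome 3.

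The PYHIN genes encode proteins of a family that binds DNA. Both rose in KA, with a median log2 fold change of 4.00, and neither was lower in KA+NBP than in KA by the test. Ifi204 stood at 0.187, 0.560 and 0.879 CPM in the sham libraries, 5.37, 11.96 and 7.34 in those of KA and 0.191, 3.36 and 0.0628 in those of KA+NBP. Ifi204 had log2 fold changes of 3.91 (SE 1.01, adjusted p = 0.0180) for KA against sham and -2.75 (SE 0.92, adjusted p = 0.0580) for KA+NBP against KA, the latter -5.94 without KA+NBP replicate 2. The KA libraries were above all 6 others. Ifi207 stood at 0, 0.187 and 0.565 CPM in the sham libraries, 3.07, 6.56 and 3.58 in those of KA and 0.127, 1.83 and 0.0628 in those of KA+NBP. Ifi207 had log2 fold changes of 4.10 (SE 1.06, adjusted p = 0.0182) for KA against sham and -2.68 (SE 0.93, adjusted p = 0.0656) for KA+NBP against KA, the latter -5.43 without KA+NBP replicate 2. Both were close to their count limit in sham and in KA+NBP replicates 1 and 3, and every KA library was above all 6 others. The rise of Ifi204 was lost without any sham library or KA replicate 2 (adjusted p up to 0.0725) and that of Ifi207 without sham replicate 1 or 2 or KA replicate 2 (up to 0.0663). Their spans overlap by 12935 bases on the same strand of chromosome 1, and that of Ifi204 overlaps with Ifi211 and Mndal as well, so their counts are uncertain. Of the 9 counts of each gene, 5 of Ifi204 and 0 of Ifi207 carried a fraction.

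Of 7 other interferon-induced genes 7 rose in KA and 6 were lower in KA+NBP than in KA. Ifi27 (chr12:103400448-103406504 on GRCm39), a small hydrophobic protein of membranes, was already abundant in sham and stood at 22.9, 23.7 and 26.3 CPM in the sham libraries, 39.9, 52.6 and 44.6 in those of KA and 29.3, 31.8 and 24.5 in those of KA+NBP. Ifi27 had log2 fold changes of 0.91 (SE 0.13, adjusted p = 0.00192) for KA against sham and -0.68 (SE 0.13, adjusted p = 0.00809) for KA+NBP against KA, the latter -0.76 without KA+NBP replicate 2. The shift was small, the spread narrow, and KA was above all other libraries. Lgals3bp, a secreted glycoprotein that binds galectins, held the largest count of the 44 in KA and stood at 14.7, 19.0 and 21.2 CPM in the sham libraries, 133, 214 and 165 in those of KA and 15.5, 54.0 and 13.4 in those of KA+NBP. Lgals3bp had log2 fold changes of 3.22 (SE 0.49, adjusted p = 0.00255) for KA against sham and -2.62 (SE 0.47, adjusted p = 0.00744) for KA+NBP against KA, the latter -3.56 without KA+NBP replicate 2. KA+NBP replicates 1 and 3 were near sham and replicate 2 between sham and KA. Ifi27l2a, of the same family as Ifi27, stood at 0.249, 0 and 0.816 CPM in the sham libraries, 4.66, 11.7 and 6.54 in those of KA and 0.445, 1.10 and 0.0628 in those of KA+NBP. Ifi27l2a had log2 fold changes of 4.40 (SE 0.86, adjusted p = 0.00592) for KA against sham and -3.80 (SE 0.81, adjusted p = 0.0134) for KA+NBP against KA, the latter -4.87 without KA+NBP replicate 2. It was the largest rise of the 44 from a low start, and its span shares 6057 bases with Ifi27 on the other strand. Whether the counting used the strand is not given in the sources used here. Of the 9 counts of either gene 0 carried a fraction, and whether reads of the pair were mixed was not tested. Ifi44 stood at 0.561, 0.560 and 0.816 CPM in the sham libraries, 2.95, 7.91 and 5.61 in those of KA and 0.445, 2.14 and 0.439 in those of KA+NBP. Ifi44 had log2 fold changes of 3.07 (SE 0.62, adjusted p = 0.00680) for KA against sham and -2.43 (SE 0.59, adjusted p = 0.0205) for KA+NBP against KA, the latter -3.61 without KA+NBP replicate 2. KA was above all other libraries. Ifi35, a partner of Nmi in cytokine signalling, stood at 1.50, 1.80 and 1.76 CPM in the sham libraries, 5.31, 8.40 and 6.23 in those of KA and 1.33, 4.65 and 2.13 in those of KA+NBP. Ifi35 had log2 fold changes of 1.97 (SE 0.41, adjusted p = 0.00732) for KA against sham and -1.29 (SE 0.39, adjusted p = 0.0430) for KA+NBP against KA, the latter -1.93 without KA+NBP replicate 2. Just below the lowest KA library came KA+NBP replicate 2. Rtp4, a chaperone of membrane receptors, stood at 1.31, 1.49 and 2.45 CPM in the sham libraries, 5.19, 12.1 and 6.35 in those of KA and 1.91, 4.89 and 1.32 in those of KA+NBP. Rtp4 had log2 fold changes of 2.17 (SE 0.52, adjusted p = 0.0131) for KA against sham and -1.54 (SE 0.50, adjusted p = 0.0533) for KA+NBP against KA, the latter -2.29 without KA+NBP replicate 2. The sham and KA libraries did not overlap, and the span of Rtp4 shares 1168 bases with Masp1 on the other strand. Xaf1, a protein that binds an inhibitor of apoptosis, stood at 5.05, 5.35 and 4.33 CPM in the sham libraries, 9.33, 17.9 and 9.68 in those of KA and 4.00, 7.89 and 3.58 in those of KA+NBP. Xaf1 had log2 fold changes of 1.32 (SE 0.34, adjusted p = 0.0180) for KA against sham and -1.25 (SE 0.34, adjusted p = 0.0306) for KA+NBP against KA, the latter -1.69 without KA+NBP replicate 2. KA replicates 1 and 3 were close together and only replicate 2 was much higher. The rises of Xaf1 (adjusted p up to 0.0689) and Rtp4 (up to 0.0574) were lost without sham replicate 1, the first also without sham replicate 3 or KA replicate 2 and the other without sham replicate 2. The fall of Ifi35 was lost without any library other than KA+NBP replicate 2 (up to 0.128), those of Ifi44 (up to 0.0713) and Xaf1 (up to 0.108) without KA replicate 2 or KA+NBP replicate 1 or 3 among others, and that of Ifi27l2a without KA+NBP replicate 1 (0.0529).

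Levels were compared between genes per transcript length, as FPKM from the deposited table. In KA the highest was Ifitm3 at 111 ± 17.8 FPKM (SD, n = 3), followed by Lgals3bp at 89.5 ± 20.3, Ifi27 at 61.6 ± 7.93, Ifi27l2a at 39.9 ± 18.3, Ifit3 at 33.6 ± 16.9 and Bst2 at 32.2 ± 9.64. In this order the KA libraries of Lgals3bp were all above those of Ifi27, and those of every other pair of neighbours overlapped. In sham the order was Ifi27 at 31.8 ± 2.44 FPKM, Ifitm3 at 22.7 ± 9.24, Lgals3bp at 9.39 ± 1.72, Stat2 at 7.61 ± 0.330 and Cmpk2 at 6.79 ± 0.557. In KA+NBP Ifi27 was again first at 37.6 ± 5.71, with Ifitm3 at 29.9 ± 22.9 and Lgals3bp at 14.5 ± 12.5. The lowest level in each group was that of Oas3, at 0.583 ± 0.242 FPKM in KA.

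The comparison of KA+NBP with sham asked what difference from sham remained with NBP. Of the 44 genes 0 were called in either direction by edgeR, where 0.0% of all tested genes were, and at an unadjusted p under 0.05 there were 0 of the 44 and 248 of all tested genes (1.68%). DESeq2 called 0 of the 44 and 1 gene in all. All 44 log2 fold changes were above 0, with a median of 0.60 against 0.01 over all tested genes. In 2 of the 44 every KA+NBP library was above every sham library (3.29% of all tested genes). These were Cmpk2 and Isg20, chosen for mention after their values were seen. Without KA+NBP replicate 2 the median was -0.30 with 12 values above 0 and 32 below, so the direction of the median rested on that library.

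Where each KA+NBP library lay between the other groups was expressed as a position on the log2 CPM scale, on which 0 is the mean of sham and 100 that of KA. Over the 42 genes that had risen in KA, the median position was -2.43 in KA+NBP replicate 1, 67.0 in replicate 2 and -18.4 in replicate 3. For 2760 other genes that rose in KA the medians were -1.32, 54.1 and -1.93, and for 9 microglia markers that rose -9.36, 45.4 and -14.9. In replicate 2, 34 of the 42 genes were past 50 and 1 past 100. By role the median position in replicate 2 ran from 54.5 for the other interferon-induced genes, 57.0 for the transcription factors and 58.8 for the oligoadenylate synthetases to 72.5 for the Isg15 and ADP-ribosylation group and 86.9 for the GTPases. The 5 GTPases ranged from 74.7 to 135 there, Igtp included. In replicate 3 the GTPases were at the other end, with a median of -51.7. Replicates 1 and 3 gave no position above 50 for any of the 42.

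**Figure D4:**
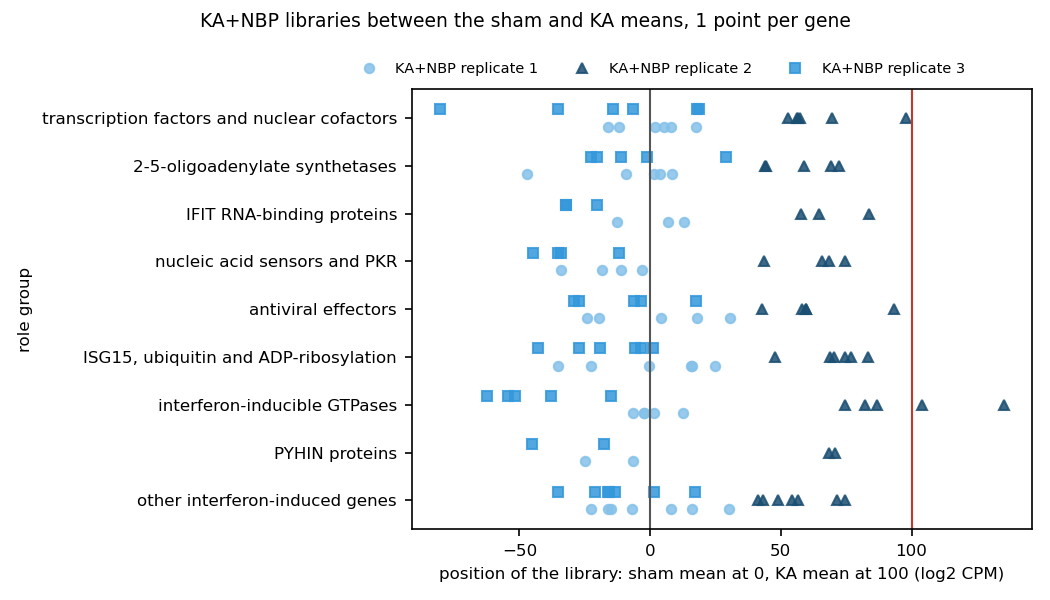
Position of each KA+NBP library for each gene on the log2 CPM scale, where 0 (grey line) is the mean of sham and 100 (red line) that of KA; rows are role groups, and circles, triangles and squares are replicates 1, 2 and 3. Replicate 2 lies from 41.3 upward in every role group, with 2 GTPases past 100, replicate 1 scatters about 0, and replicate 3 is below 0 for 35 of the 42 genes that rose in KA. Cmpk2 is left out because its sham and KA means nearly coincide.

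The KA libraries were also unequal in these genes. KA replicate 2 was the highest of the 3 in 42 of the 44 and replicate 1 the lowest in 41. Replicate 2 was the highest in 31.4% of all tested genes and in 24.6% of the 2760 other genes that rose. The ratio of KA replicate 2 to replicate 1 had a median of 1.78 over the 44 genes and of 1.00 over all tested genes, and it was at least 2 in 18 of the 44 (40.9%) and in 133 of all tested genes (0.902%). It was largest for Oas2 at 3.78, Isg15 at 3.37 and Ifit1 at 3.12, and lowest for Irf1 and Isg20 at 0.976 and 0.978. For 10 microglia markers the median ratio was 1.05 and for 8 astrocyte markers 1.07, with 0 of each at 2 or more. Of all genes that rose in KA, 43 had a ratio of at least 2. These were 18 of the 42 interferon-stimulated genes, 5 of 60 further genes of the interferon pathway (Ifi209, Ifi213, Ifit3b, Oas1g and Slfn8) and 20 of 2700 others. The lists do not hold every related gene, and the 20 others included Ifi206, Ifi208 and Slfn9. The ratio compares 2 mice, for most of the 44 genes the highest and lowest KA libraries, and has no test. The ratio of replicate 2 to replicate 3 had a median of 1.42 over the 44 genes. That median was 1.01 over all tested genes and 0.946 over the 2760 other genes that rose.

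The sum of the 44 genes showed both spreads at once. The sham libraries held 222, 242 and 257 CPM, those of KA 681, 1177 and 835 and those of KA+NBP 236, 525 and 204. Set against the microglia marker sum of the same library, the 44 genes held 55.9, 50.1 and 58.1 CPM per 100 CPM of markers in sham. In KA this quotient was 42.2, 71.4 and 51.8, and in KA+NBP 59.4, 66.2 and 55.5. The sham and KA ranges of the quotient overlapped, while those of the sum did not. Both weigh genes by their counts. Stat2, Ifi27 and Cmpk2 had the highest mean CPM in sham (32.3, 24.3 and 20.0), with ratios of mean CPM in KA to sham of 1.34, 1.88 and 1.07. Lgals3bp, the highest in KA at 171 CPM, had a ratio of 9.31. With each of the 44 genes weighed equally, the median log2 fold change was 2.12. Microglia markers were nearly equal in the 3 KA libraries, and the sum of the 44 genes was not. KA replicate 2 and KA+NBP replicate 2 had the highest quotients.

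**Figure D5:**
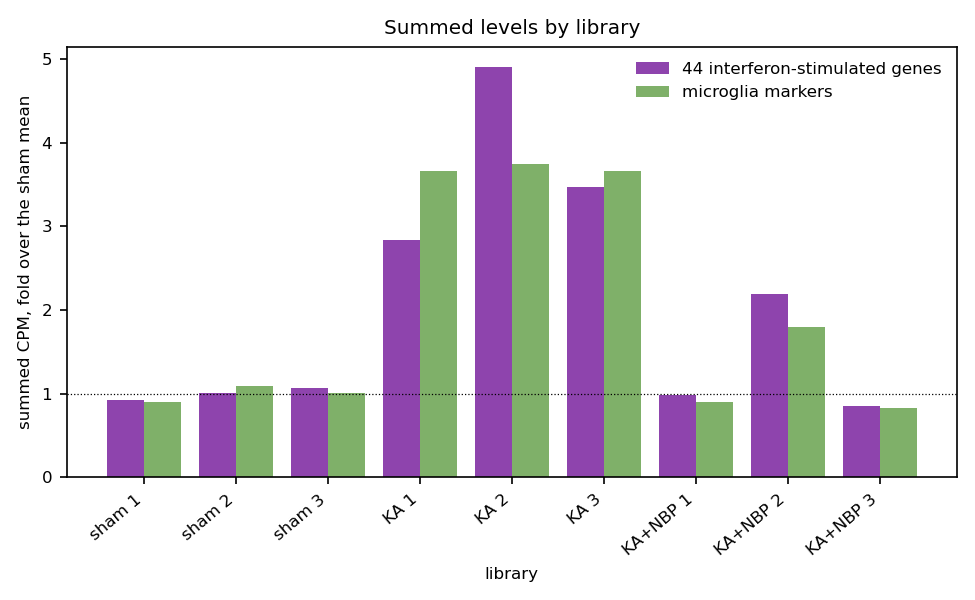
Summed CPM of 44 interferon-stimulated genes (purple) and of 10 microglia markers (green) in each library, as fold over the mean of the 3 sham libraries (dotted line at 1). The purple bars reach 2.83, 4.90 and 3.47 in KA, where the green bars are 3.66, 3.74 and 3.65, and 0.983, 2.19 and 0.848 in KA+NBP.

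Further genes of the interferon pathway were taken from 6 lists of 109 genes, of which 101 were in the table and 96 tested. Of the 96, 60 rose and 3 fell in KA, and 38 were lower and 2 higher in KA+NBP than in KA. Of all tested genes 19.0% rose, 14.6% fell, 12.7% were lower and 10% higher in these comparisons. Without sham replicate 1 the 60 was 33, and without KA+NBP replicate 2 the 38 was 70 and the 2 was 4. The 38 was 10 without KA+NBP replicate 1, 15 without replicate 3, 14 without KA replicate 2, 16 without KA replicate 3, 24 without KA replicate 1, 25 without sham replicate 2 and 6 with only the 6 libraries compared. The share of all tested genes is not given for these lower counts, so they cannot be set against other genes. The ligands came first: of 9 listed 2 had a row and 0 were tested. Ifng, interferon gamma, had 0 counts in sham, 4 in KA and 2 in KA+NBP over 3 libraries each. Ifne, interferon epsilon, had 0 counts in all 9, which allows up to 0.177 to 0.191 CPM per library. Interferon beta and the alpha genes listed were not analysed here.

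Of 8 tested receptor and kinase genes 3 rose in KA and 2 were lower in KA+NBP than in KA, against 19.0% and 12.7% of all tested genes. The median log2 fold changes of the 8 were 0.14 and -0.091. Ifngr1, the ligand-binding chain for interferon gamma, stood at 13.1, 15.2 and 16.2 CPM in the sham libraries, 36.9, 31.3 and 34.8 in those of KA and 13.0, 24.6 and 13.2 in those of KA+NBP. Ifngr1 had log2 fold changes of 1.21 (SE 0.23, adjusted p = 0.00502) for KA against sham and -1.02 (SE 0.22, adjusted p = 0.0149) for KA+NBP against KA, the latter -1.39 without KA+NBP replicate 2. The KA libraries were above all others. Ifnar2, a chain of the type I receptor, stood at 18.5, 16.7 and 18.3 CPM in the sham libraries, 36.3, 30.9 and 31.2 in those of KA and 16.1, 26.8 and 17.2 in those of KA+NBP. Ifnar2 had log2 fold changes of 0.88 (SE 0.18, adjusted p = 0.00644) for KA against sham and -0.71 (SE 0.18, adjusted p = 0.0217) for KA+NBP against KA, the latter -0.98 without KA+NBP replicate 2. The KA libraries were again above all others. Ifnar1, the other type I chain, averaged 55.5 ± 0.267 CPM in sham, 62.0 ± 1.28 in KA and 56.9 ± 7.71 in KA+NBP (SD, n = 3), with log2 fold changes of 0.16 (SE 0.091, adjusted p = 0.199) and -0.13 (SE 0.091, adjusted p = 0.343). Without KA+NBP replicate 2 Ifnar1 was lower in KA+NBP than in KA (-0.22 (adjusted p = 0.0404)). Ifngr2 averaged 65.3 ± 1.07, 66.5 ± 3.48 and 64.0 ± 6.95 CPM, with 0.027 (SE 0.084, adjusted p = 0.829) and -0.056 (SE 0.084, adjusted p = 0.656). Il10rb, a shared chain of the lambda interferon receptor, averaged 9.05 ± 0.328, 18.8 ± 1.09 and 11.2 ± 6.48 CPM, with 1.05 (SE 0.32, adjusted p = 0.0309) and -0.75 (SE 0.31, adjusted p = 0.113). The rise of Il10rb was lost without any of the 6 sham and KA libraries (adjusted p up to 0.0950), the fall of Ifngr1 without KA+NBP replicate 1 (0.0553) and that of Ifnar2 without KA replicate 1 or 3 or KA+NBP replicate 1 or 3 (up to 0.0752). Without KA+NBP replicate 2 that of Il10rb passed (-1.34 (adjusted p = 1.78e-05)).

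Among the transcription factor genes outside the 44, Irf8, Irf5 and Stat3 rose in KA and were lower in KA+NBP than in KA. Irf8, a factor of microglia and other myeloid cells, stood at 5.18, 6.65 and 7.22 CPM in the sham libraries, 33.6, 43.6 and 37.9 in those of KA and 5.21, 14.5 and 6.15 in those of KA+NBP. Irf8 had log2 fold changes of 2.59 (SE 0.34, adjusted p = 0.00165) for KA against sham and -2.15 (SE 0.33, adjusted p = 0.00471) for KA+NBP against KA, the latter -2.75 without KA+NBP replicate 2. The KA libraries were above all others by a wide margin. Irf5, which acts below Toll-like receptors, stood at 4.62, 3.79 and 3.83 CPM in the sham libraries, 14.6, 15.4 and 14.4 in those of KA and 3.05, 6.60 and 4.27 in those of KA+NBP. Irf5 had log2 fold changes of 1.86 (SE 0.24, adjusted p = 0.00162) for KA against sham and -1.67 (SE 0.24, adjusted p = 0.00374) for KA+NBP against KA, the latter -2.01 without KA+NBP replicate 2. Its 3 KA libraries were nearly equal and above all others. Stat3, a factor of interleukin signalling, averaged 58.0 ± 2.85, 108 ± 19.8 and 64.2 ± 15.4 CPM, with 0.90 (SE 0.17, adjusted p = 0.00544) and -0.75 (SE 0.17, adjusted p = 0.0165), the latter lost without KA replicate 3 or KA+NBP replicate 1 or 3 (up to 0.0610).

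Of 15 genes of the pathway that induces interferon 11 rose and 1 fell in KA, and 7 were lower in KA+NBP than in KA. The shares of all tested genes were 19.0%, 14.6% and 12.7%. Ticam1, an adaptor of Toll-like receptors, averaged 5.10 ± 0.179, 11.7 ± 0.874 and 6.18 ± 0.978 CPM in sham, KA and KA+NBP, with 1.20 (SE 0.15, adjusted p = 0.00129) and -0.92 (SE 0.14, adjusted p = 0.00489). Tlr7, the endosomal sensor of single-stranded RNA, averaged 6.33 ± 0.291, 19.9 ± 2.91 and 7.97 ± 3.60 CPM, with 1.65 (SE 0.27, adjusted p = 0.00339) and -1.31 (SE 0.27, adjusted p = 0.0114). Both calls of both genes held with each library left out. Sting1, the adaptor of cytosolic DNA sensing, averaged 4.77 ± 0.798, 10.4 ± 0.894 and 5.56 ± 1.52 CPM, with 1.12 (SE 0.21, adjusted p = 0.00549) and -0.89 (SE 0.21, adjusted p = 0.0188). Ddx58, the RNA sensor RIG-I, averaged 5.56 ± 0.375, 19.5 ± 5.68 and 7.59 ± 4.20 CPM, with 1.81 (SE 0.36, adjusted p = 0.00613) and -1.36 (SE 0.35, adjusted p = 0.0252). The falls of Sting1 (adjusted p up to 0.0583) and Ddx58 (up to 0.0922) were lost without KA replicate 2 or KA+NBP replicate 1 or 3, that of Ddx58 also without KA replicate 3. Traf3, a signalling adaptor, was the gene that fell, named after its values were seen.

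Of 12 negative regulators 3 rose and 1 fell in KA, and 2 were lower and 1 higher in KA+NBP than in KA. These shares were near those of all tested genes (19.0%, 14.6%, 12.7% and 10%). Pias1, an inhibitor of cytokine signalling, was the gene that fell, from 80.6 ± 3.08 CPM in sham to 62.9 ± 0.948 in KA, and stood at 77.3 ± 2.94 in KA+NBP. Pias1 had log2 fold changes of -0.36 (SE 0.058, adjusted p = 0.00314) and 0.30 (SE 0.058, adjusted p = 0.00971), and the KA libraries were below all others. Ptpn6, a phosphatase of blood and microglial cells, averaged 4.08 ± 0.309, 24.4 ± 1.83 and 6.41 ± 5.10 CPM, with 2.58 (SE 0.44, adjusted p = 0.00367) and -1.93 (SE 0.42, adjusted p = 0.0144). Socs3, a feedback inhibitor of Janus kinases, averaged 1.50 ± 0.320, 7.65 ± 1.81 and 3.48 ± 2.00 CPM, with 2.35 (SE 0.46, adjusted p = 0.00589) and -1.13 (SE 0.42, adjusted p = 0.0827). Nlrc3, which restrains innate sensing, averaged 1.02 ± 0.339, 2.97 ± 0.341 and 1.28 ± 0.595 CPM, with 1.54 (SE 0.36, adjusted p = 0.0124) and -1.20 (SE 0.35, adjusted p = 0.0390). The fall of Ptpn6 was lost without KA+NBP replicate 1 (0.0524), that of Nlrc3 without any library other than KA+NBP replicate 2 (up to 0.126) and the rise of Nlrc3 without sham replicate 1 or 3 (up to 0.0539). Without KA+NBP replicate 2 that of Socs3 passed (-1.31 (adjusted p = 0.0375)).

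Of 55 further interferon-induced genes 39 rose and 1 fell in KA, and 24 were lower and 1 higher in KA+NBP than in KA. The shares of all tested genes were 19.0%, 14.6%, 12.7% and 10%. Lgals9, a galectin, stood at 3.93, 4.29 and 4.90 CPM in the sham libraries, 15.3, 23.6 and 17.0 in those of KA and 4.32, 8.44 and 4.14 in those of KA+NBP. Lgals9 had log2 fold changes of 2.09 (SE 0.29, adjusted p = 0.00186) for KA against sham and -1.72 (SE 0.28, adjusted p = 0.00548) for KA+NBP against KA, the latter -2.13 without KA+NBP replicate 2. The KA libraries were above all others. Cxcl10, a chemokine that draws T cells, stood at 0.187, 0.187 and 0.314 CPM in the sham libraries, 8.74, 16.7 and 19.8 in those of KA and 0.572, 4.52 and 0.126 in those of KA+NBP. Cxcl10 had log2 fold changes of 5.99 (SE 1.04, adjusted p = 0.00399) for KA against sham and -3.10 (SE 0.79, adjusted p = 0.0250) for KA+NBP against KA, the latter -5.41 without KA+NBP replicate 2. It held 11 counts in sham in all and its KA libraries were far above all others, with replicate 3 highest. Tor3a, an ATPase of the endoplasmic reticulum, averaged 6.64 ± 0.925, 25.9 ± 2.83 and 9.39 ± 4.75 CPM, with 1.96 (SE 0.30, adjusted p = 0.00245) and -1.46 (SE 0.29, adjusted p = 0.0101). Sp110, a nuclear body protein, averaged 1.52 ± 0.186, 7.12 ± 0.952 and 2.00 ± 1.23 CPM, with 2.22 (SE 0.36, adjusted p = 0.00326) and -1.82 (SE 0.35, adjusted p = 0.00978). The fall of Cxcl10 was lost without KA replicate 2 or 3 or KA+NBP replicate 1 (adjusted p up to 0.0808), and those of Lgals9, Tor3a and Sp110 held with each library left out. Mndal, a PYHIN gene whose span overlaps with Ifi204, was the gene that fell in KA and was higher in KA+NBP than in KA, named after its values were seen.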

How the data were processed

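Total RNA of hippocampus was sequenced from 9 mice, per the labels, and the groups follow the labels' titles and treatments. The submitters' processing notes name GRCm39, DESeq2 1.4.5, RSEM 1.3.1 and Bowtie2 without a role for any. The authors' deposited table gives each gene a TPM, an FPKM and an estimated count in every library. Estimated counts as deposited divide reads shared by genes, so that 5.65 to 6.61% of a library's values are fractional, as are those of 8 of the 44 genes in at least 1 library, and 11 of the 44 overlap with another gene of the table. FPKM as deposited by the authors relates counts to transcript length and depth and served for levels between genes and for 2 alternative fits. No test used TPM, which the authors deposited as well.

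Rounded counts were fitted by edgeR 4.0.16 (R 4.3.3). The filter filterByExpr left 14752 of 18474 genes, factors were by TMM (0.975 to 1.04), and all 9 libraries entered 1 quasi-likelihood model with a mean per group. P-values were adjusted by Benjamini-Hochberg over all tested genes, with a threshold of 0.05. CPM are rounded counts divided by the library total times its TMM factor and scaled to 1e6. Each SE is the size of the log2 fold change over the square root of its F statistic. Positions used log2 CPM with a prior count of 2. Summaries used Python 3.11.15 with pandas 2.3.3, and the alternatives limma 3.58.1 and DESeq2 1.42.0.

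The genes and lists were chosen with earlier results of these data known. Values per library are given for the genes of each role group with the smallest p and for those whose call differs from most, which left none of the 44 out; of each pathway list up to 4 genes with the smallest p are named, with Ifng and the receptor chains. A gene of these lists that the rule names is not reported here. The design text describes separate mice, and the labels give no batch. Same-number libraries of sham and KA+NBP deviated together (correlations 0.301, 0.332 and 0.126), from the values alone, and those with a KA library did not (-0.0450 to 0.0447). Between sham and KA+NBP libraries of different number, sham replicate 1 with KA+NBP replicate 3 was at 0.192 and the others at -0.31 to -0.0368. PCR copies of a molecule are counted as separate reads, so count bounds are narrower than the true error.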

Additional observations from a re-analysis of the deposited data

How the results depend on the processing

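With 3 mice per group, and KA+NBP replicate 2 far from its group, the counts of calls depend on which libraries enter. With each of the 9 libraries left out in turn, the genes of the 44 called higher in KA ranged from 24 to 43 and their median log2 fold change from 1.87 to 2.35. Those called lower in KA+NBP than in KA ranged from 7 to 43, with medians of -2.57 to -1.20, and the median of KA+NBP against sham ranged from -0.30 to 0.92. Pathway genes outside the 44 ranged from 33 to 68 called higher and 2 to 4 lower in KA, and from 10 to 70 called lower and 2 to 4 higher in KA+NBP than in KA. With only the 6 libraries compared, 6 of the 44 and 6 pathway genes were lower in KA+NBP than in KA. On log2(FPKM + 1) the median for KA against sham was 1.34, since the added 1 shrinks low levels. Under DESeq2, other scalings, other filters and both FPKM fits, 41 to 43 of the 44 were higher in KA. Sp100 was lost on log2(FPKM + 0.1) (adjusted p = 0.0512). Besides those given above without KA+NBP replicate 2, shares of all tested genes are not given for these counts, so they cannot be set against other genes.

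For KA+NBP against sham, 32 of the 44 values were below 0 without KA+NBP replicate 2, and all 44 above 0 with it. In KA against sham and KA+NBP against KA, the named genes that changed sign were Cmpk2 and Ifngr2, neither of which was called. With a library left out, Cmpk2 ranged from -0.064 (without KA replicate 2) to 0.20 in KA against sham, and from -0.10 (without KA replicate 1) to 0.17 in KA+NBP against KA. On log2(FPKM + 1) and log2(FPKM + 0.1) the latter was -0.0064 and -0.0057. Ifngr2 ranged from -0.015 (without KA replicate 3) to 0.058 in KA against sham, and from -0.12 to 0.029 (without KA+NBP replicate 2) in KA+NBP against KA.

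With the replicate number as a block, 43 of the 44 were higher in KA and 38 lower in KA+NBP than in KA. The share of all tested genes under the block is not given, so these counts cannot be set against other genes. For KA+NBP against sham, where libraries of the same number deviated together, the block changed no call and 0 of the 44 were called. The labels do not say that the replicate numbers pair mice. Depth limits Oasl1, Oas3, Ifi207, Zbp1 and Ifi27l2a, which held 7 to 17 counts over 3 sham libraries.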
